A study of Mus musculus with 39 samples.

Results

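The 10 genes described here encode the enzymes and regulators that make, break down and use polyamines: Odc1, Amd1, Srm and Sms (synthesis), Oaz1 and Azin1 (control of ornithine decarboxylase), Sat1 (catabolism), and Eif5a with its modifying enzymes Dhps and Dohh. They were found by symbol among the 28023 gene symbols of each expression table, and all 10 passed the filter on low values in both sets. They were chosen by measured values: Eif5a, Odc1 and Oaz1 had been lower with anti-PD-1 in both sets. Their anti-PD-1 values, and how many of them passed a threshold, are therefore a description: the choice fixed them in part, no p is given and nothing is read from the counts. RNA-seq was made from sorted CD8+ tumour-infiltrating T cells (20 libraries) and from material labelled bulk tumour (19 libraries), in separate runs of the same experiment. Every animal was a wild-type C57BL/6 mouse that received a faecal microbiota transplant (FMT) of HV stool and, 2 weeks later, a subcutaneous graft of MCA-205, a fibrosarcoma line syngeneic to the strain. Per the labels, the stool of the CZA arm was treated with CZA for 6 days, and that of the CZA+DAV132 arm with CZA together with DAV132. The labels do not spell out CZA or HV and give no age. Mice received 4 injections, 3 days apart, of an antibody (250 µg, clone RMP1-14) to PD-1, a receptor that restrains activated T cells, or of the isotype control clone 2A3, and were killed 2 days after the last. Each set thus held 4 groups of 5 libraries, except that the CZA+DAV132 isotype group labelled bulk tumour held 4.

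Polyamines are small cations that bind RNA and are needed for growth, and activated T cells are known to raise their synthesis. Odc1 decarboxylates ornithine to putrescine, Amd1 makes the aminopropyl donor, and Srm and Sms add aminopropyl groups to give spermidine and then spermine. Antizyme, encoded by Oaz1, binds ornithine decarboxylase and sends it to the proteasome. Its own translation needs a ribosomal frameshift that polyamines favour, and Azin1 is an inactive relative of the decarboxylase that sequesters antizyme. Sat1 acetylates spermidine and spermine for export or oxidation. Spermidine also gives part of its chain to a lysine of the translation factor eIF5A. Dhps carries out that transfer and Dohh then hydroxylates the residue to hypusine, which eIF5A needs to help ribosomes past difficult stretches. The libraries measure transcripts, so frameshifting, hypusine and polyamine levels were not measured.

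A few sequences show the steps that these transcripts carry. The coding sequence of Oaz1 holds the frameshift site at chr10:80828265-80828327 (GRCm38, plus strand, GENCODE M21), shown with the stop codon of the first frame in capitals. In 3 of 6 coding transcripts the annotation leaves out base 80828295, the T of that codon, and reads on in the next frame.
Oaz1 frameshift site: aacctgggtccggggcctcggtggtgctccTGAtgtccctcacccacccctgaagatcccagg
The stretch around the lysine that becomes hypusine is shown for Eif5a (chr11:69918016-69919189, minus strand, across exons) and for its relative Eif5a2 (chr3:28782178-28782733, plus strand, across exons). Capitals mark codon 50, the lysine codon, and 39 of the 45 bases were the same.
Eif5a codon 50: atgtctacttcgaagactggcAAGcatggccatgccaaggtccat
Eif5a2 codon 50: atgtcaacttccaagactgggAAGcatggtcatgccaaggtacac
The third set is the sequence upstream of the 3 genes by which the group was chosen (RefSeq, GRCm38.p6), up to 250 bases and cut where GENCODE M21 has an exon of the gene. For Eif5a it is the stretch before the second of 6 RefSeq starts, which lies inside the annotated gene, downstream of its outermost start. Capitals mark E-boxes (CACGTG, the site bound by MYC with MAX, the same on both strands) and GC boxes (GGGCGG or CCGCCC).
Odc1 upstream, chr12:17544623-17544793, plus strand: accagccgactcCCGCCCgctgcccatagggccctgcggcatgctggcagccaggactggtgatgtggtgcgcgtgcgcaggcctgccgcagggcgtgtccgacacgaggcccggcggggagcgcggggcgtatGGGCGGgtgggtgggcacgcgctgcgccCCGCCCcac
Oaz1 upstream, chr10:80826406-80826655, plus strand: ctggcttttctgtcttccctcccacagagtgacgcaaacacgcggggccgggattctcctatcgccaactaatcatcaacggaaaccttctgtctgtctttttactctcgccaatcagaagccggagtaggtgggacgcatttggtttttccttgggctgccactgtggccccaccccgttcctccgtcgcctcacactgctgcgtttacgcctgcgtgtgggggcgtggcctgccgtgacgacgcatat
Eif5a upstream, chr11:69921387-69921636, minus strand: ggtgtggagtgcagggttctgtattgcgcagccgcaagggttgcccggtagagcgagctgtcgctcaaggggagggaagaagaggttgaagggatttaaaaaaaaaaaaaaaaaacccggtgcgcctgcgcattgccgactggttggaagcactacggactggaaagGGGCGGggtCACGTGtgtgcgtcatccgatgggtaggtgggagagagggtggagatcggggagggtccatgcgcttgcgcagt
The Odc1 stretch is 77.2% G and C and holds 3 GC boxes, the Eif5a stretch is 58% G and C with an E-box and a GC box, and the Oaz1 stretch, also 58%, holds neither motif. The 300 bases at the outermost Eif5a start (chr11:69921909-69922208) hold neither motif either. The RefSeq table held 14 promoters of 300 bases for 8 of the 10 genes, 6 of them for Eif5a. An E-box was found in 5 of the 14 (of Sms, Eif5a and Dohh) and in 7.15% of all 32851 promoters, and a GC box in 8 of the 14 and in 35.7% of all promoters. The promoters are not independent, since 2 neighbouring ones of Eif5a overlap and share 1 E-box and 1 GC box. Searched on both strands as well, TATAAA was found in 1 of the 14 and in 13.6% of all, CCAAT in 3 and in 37.4%, and TGACGTCA in 0 and in 1.79%. Such a match is a description of letters, and a window without one says nothing of the factor.

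The 2 sets came as separate tables and were fitted apart, so a level compared across them may carry a difference in scale. TPM is a share of all transcripts of a library, so entries that take much of it lower all other genes. In the CD8+ T cell set, 15 satellite and simple-repeat entries took 11.5 to 69.2% of all TPM in anti-PD-1 libraries of the CZA+DAV132 arm and 0.307 to 25.2% in the other 15, with library 19 at 69.2% and library 16 at 28.3%. Among the libraries labelled bulk tumour, T026 (CZA+DAV132, anti-PD-1) had 50.8%, T985 (CZA, isotype) 13.5% and the others at most 0.422%. Many of the changes are therefore also given after median-ratio scaling, which takes the median gene of each library as the reference, or without these libraries. Values with no such remark are unscaled and from all libraries. The tumour label also went against its markers. A list of 10 T cell genes summed to 4164 to 13602 TPM there, against 3675 to 15779 TPM in the sorted cells, and 10 fibroblast and sarcoma genes to a median of 55.3 TPM, with Lum and Pdgfrb at a median of 0. These libraries are called by their label throughout. In either kind of sample, fewer cells of a type and less RNA per cell cannot be told apart.

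Antizyme and eIF5A had the highest median levels of the group in both sets. The median level over the 20 CD8+ T cell libraries was 1534 TPM for Oaz1, 861 TPM for Eif5a and 174 TPM for Sat1, and each of these lay above the next gene in 20 of 20 libraries. Below them came Dhps (57.7 TPM), Odc1 (54.6), Srm (40.5) and Sms (33.4), whose libraries crossed: Dhps exceeded Odc1 in 12 of 20, Odc1 exceeded Srm in 15 and Srm exceeded Sms in 13. Sms exceeded Azin1 in 20 of 20. Azin1 (14.5 TPM) and Dohh (14.1 TPM) could not be ordered, with Azin1 the higher in 10 of 20, and Amd1 was lowest at 11.03 TPM. The order among libraries labelled bulk tumour began alike, with medians of 697 TPM for Oaz1, 306 TPM for Eif5a and 169.9 TPM for Sat1, and Oaz1 above Eif5a in 19 of 19. Eif5a exceeded Sat1 in 16 of 19, Sat1 being the higher in T983, T986 and T021. It went on with Dhps (84.8 TPM), Odc1 (82.9), Sms (53.2), Azin1 (26.4), Amd1 (13.96), Srm (11.9) and Dohh (5.62). Dhps exceeded Odc1 in 10 of 19 there and Amd1 exceeded Srm in 10 of 19, so those neighbours did not separate. Spermidine synthase stood above spermine synthase at the median in sorted T cells and below it in the other set. In the latter, Srm, Amd1 and Dohh had coefficients of variation of 79.9%, 71.6% and 67.3% over libraries, the 3 highest of the 10 genes.

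**Figure D1:**
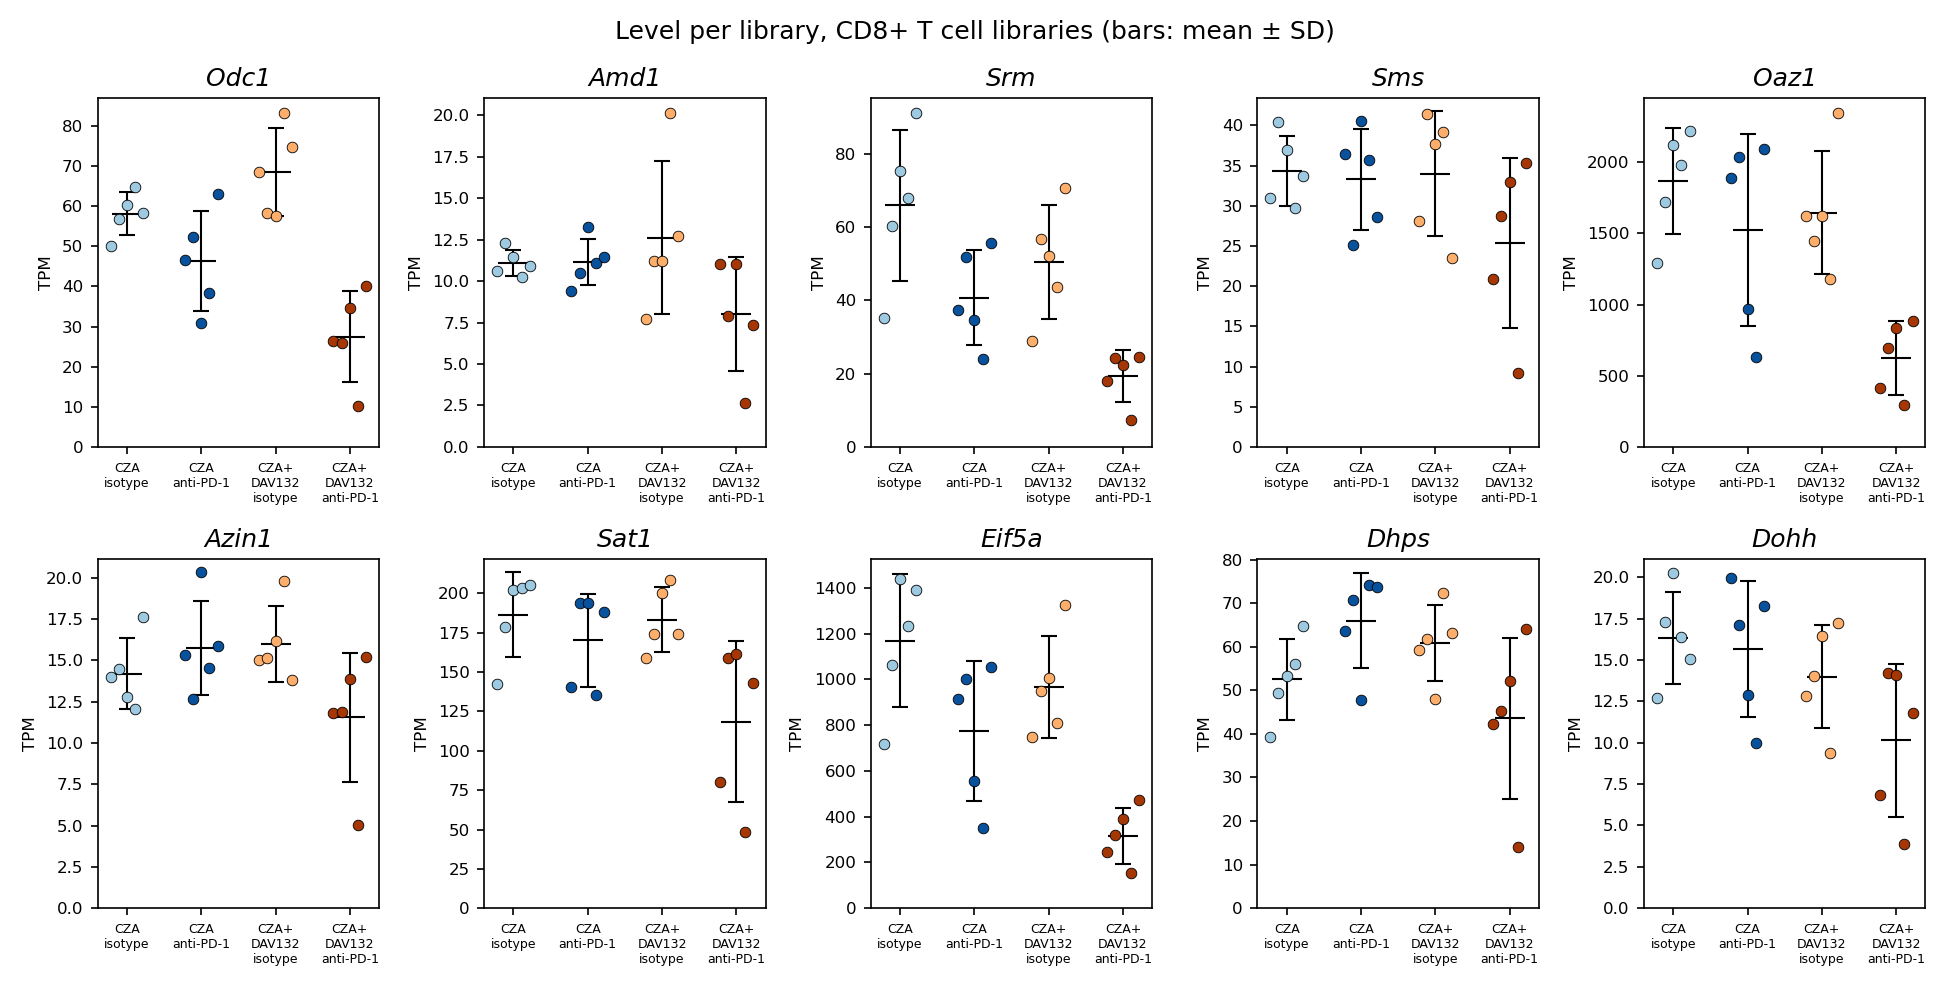
Each panel plots the TPM of 1 gene (linear axis from 0) in the 20 CD8+ T cell libraries, a point per library by group, with the mean and SD as bars. In the CZA+DAV132 arm the anti-PD-1 points lie wholly below the isotype points for Odc1, Srm, Oaz1 and Eif5a, and the groups overlap for the other 6 genes.

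Under anti-PD-1, the decarboxylase, its antizyme and eIF5A stood lower in both sets, with larger changes in the CZA+DAV132 arm than in the CZA arm. In CZA+DAV132 CD8+ T cells the log2 change (anti-PD-1 minus isotype, on the log2(TPM + 1) scale) was negative for all 10 genes, with a median of −0.70 against −0.34 over all 12942 tested genes. There, 4 of the 10 (Odc1, Oaz1, Srm, Eif5a) were called lower, that is with a limma adjusted p under 0.05 over all tested genes, where 19.4% of all tested genes were. The same 4 had groups that did not overlap, as did 12.1% of all genes in that direction. With CZA alone 0 of 10 were called lower or higher (background 0% and 0.0155%, with 661 of all genes at an unadjusted p under 0.05), and the median change was −0.11 against −0.02. Of all genes 533 were called higher and 2509 lower in the CZA+DAV132 arm, and median-ratio scaling, which moved the median change to 0.00, gave 1470 higher and 1828 lower. Rescaling TPM without the repeat entries gave 1290 and 1361. After that scaling the 4 genes had −1.21 (Eif5a), −0.99 (Oaz1), −0.94 (Odc1) and −0.93 (Srm) and still did not overlap. The other 6 then lay between −0.28 and −0.05. Without libraries 16 and 19, 3 of the 10 were called lower, where 5.2% of all genes were. Without library 20, 7 of the 10 were, in a fit whose share of all genes is not given.

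In the libraries labelled bulk tumour the CZA+DAV132 arm gave negative changes for 9 of the 10 genes, all but Dohh, with a median of −0.88 against −0.15 over all 13326 tested genes. Odc1 and Eif5a were called lower there, where 0.21% of all tested genes were, and Odc1, Oaz1, Sms and Eif5a had groups that did not overlap, as did 4.43% of all genes. With median-ratio scaling Sms overlapped and the median over all genes was 0.03. Odc1, Eif5a and Oaz1 then had −1.41, −1.32 and −1.13 and still did not overlap, and Srm had −1.31. Of all genes 28 were called lower and 4 higher (0.03%), against 32 and 12 with that scaling and 39 and 65 after rescaling without the repeat entries. With CZA alone 5 of 10 changes were negative and 5 positive, with a median of 0.06 against 0.25 over all genes, and 0 were called lower (background 0.0075%, with 1745 of all genes at an unadjusted p under 0.05). Odc1, Oaz1 and Eif5a had −0.35, −0.43 and −0.44 there. With median-ratio scaling they had −0.57, −0.65 and −0.66, and the median over all genes was 0.09. The calls of Odc1 and Eif5a in the CZA+DAV132 arm were lost when single libraries were left out: 0 members were called lower without T021, T022, T023, T024, T026, T027, T028 or T030. The share of all genes in those fits is not given, so these counts have no background. Without both T026 and T985 the changes of Odc1 and Eif5a were −1.49 and −1.44, and 0.0839% of all genes were called lower. The choice of genes rests on the change averaged over the arms, which by that choice was past the threshold for Eif5a, Odc1 and Oaz1 in both sets (background 10.8% in CD8+ T cells and 0.548% in the other set), and it was so for Srm in CD8+ T cells. The smallest averaged change among these genes was −0.88 (Odc1) in CD8+ T cells and −0.90 (Oaz1) in the other set, and the nearest outside was Sat1, at −0.45 and −0.60.

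**Figure D2:**
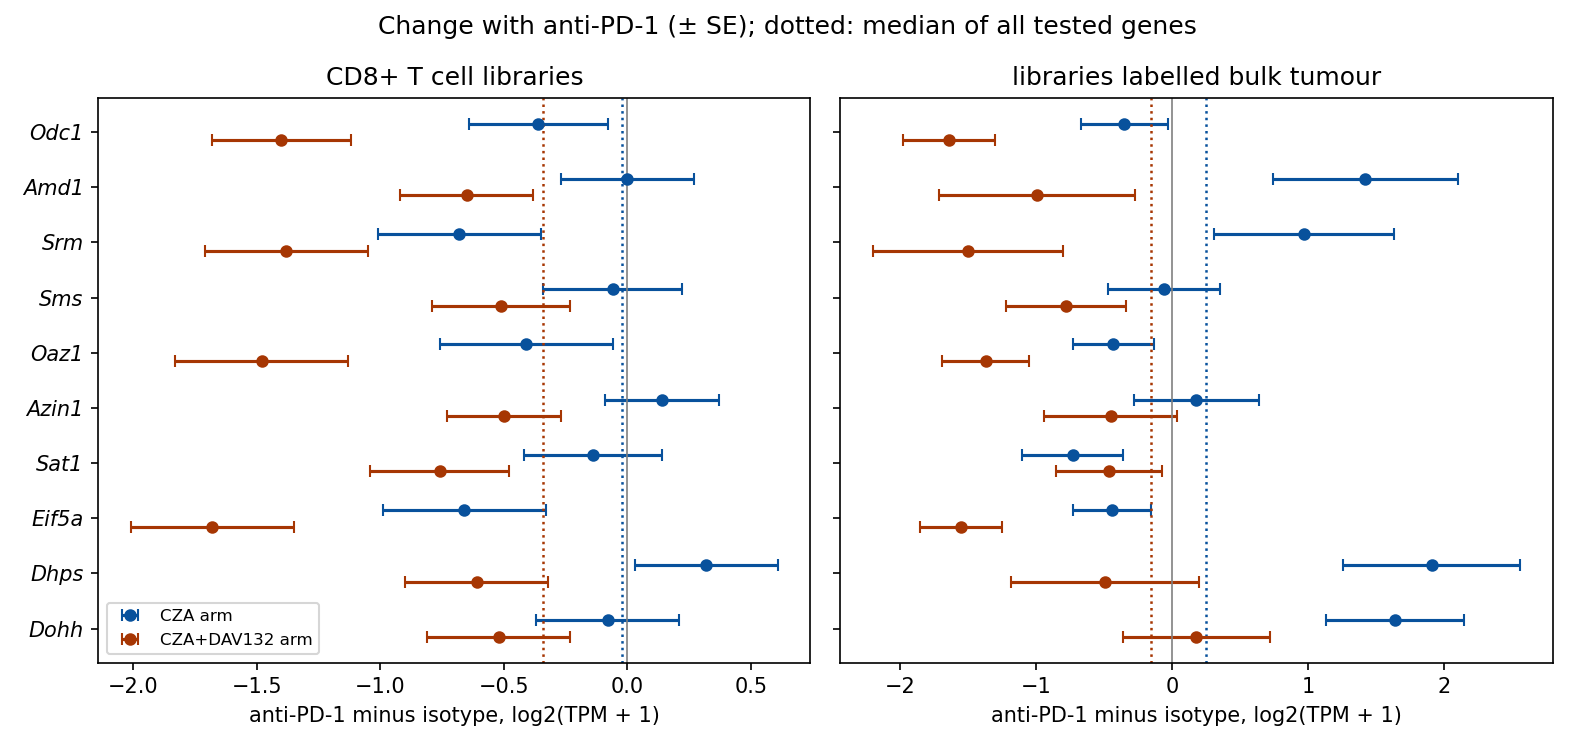
Points give the log2 change with anti-PD-1 of each gene, with its standard error, in the CZA arm (blue) and the CZA+DAV132 arm (brown), and dotted lines the median change of all tested genes in that arm. In CD8+ T cells the brown points of Odc1, Srm, Oaz1 and Eif5a lie from −1.68 to −1.38, and among libraries labelled bulk tumour Amd1, Srm, Dhps and Dohh lie at or above 0.97 in the CZA arm.

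Among the synthesis genes, Odc1 followed this pattern in both sets. Odc1 (ENSMUSG00000011179, chr12:17544794-17551505) had 68.6, 58.2, 57.4, 83.3 and 74.7 TPM in CD8+ T cell libraries 11 to 15, of the CZA+DAV132 isotype group. It had 26.4, 25.9, 34.6, 10.3 and 40.2 TPM in libraries 16 to 20, of the anti-PD-1 group, all below the lowest isotype library, with library 19 the lowest. The means were 68.4 ± 11.01 and 27.5 ± 11.3 TPM (SD, n = 5 and 5), a log2 change of −1.40 (SE 0.28), and −1.01 without libraries 16 and 19. The CZA arm had 50.04, 56.9, 60.2, 64.7 and 58.4 TPM under isotype (libraries 1 to 5) and 52.3, 30.8, 38.4, 63.1 and 46.7 TPM under anti-PD-1 (libraries 6 to 10). These groups overlapped, since libraries 6 and 9 lay among the isotype values, and the change was −0.36 (SE 0.28). Tumour-labelled Odc1 levels were 120.0, 107, 172 and 197 TPM under isotype (T022, T024, T027, T028) and 39.2, 38.1, 29.1, 82.6 and 53.8 TPM under anti-PD-1 (T021, T023, T026, T029, T030) in the CZA+DAV132 arm. The isotype group there was the highest of the 4 groups and the anti-PD-1 group the lowest, at 149 ± 42.6 and 48.6 ± 21.01 TPM (SD, n = 4 and 5), a change of −1.64 (SE 0.34). The CZA arm overlapped, with 68.7 to 121 TPM under isotype, 52.1 to 133 TPM under anti-PD-1 and a change of −0.35.

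Spermidine synthase stood lower in both sets under CZA+DAV132, with changes of opposite sign under CZA alone. Srm (ENSMUSG00000006442, chr4:148591503-148594993) had 28.8, 56.7, 52.1, 43.6 and 70.7 TPM under isotype and 17.9, 24.2, 22.3, 7.46 and 24.5 TPM under anti-PD-1 in CZA+DAV132 CD8+ T cells. Every anti-PD-1 library lay below library 11, the lowest with isotype, and the change was −1.38 (SE 0.33), or −1.0 without libraries 16 and 19. Under CZA alone the same cells had 65.95 ± 20.6 TPM under isotype and 40.7 ± 13.02 TPM under anti-PD-1 (SD, n = 5 and 5; change −0.68 (SE 0.33)), with overlap. The tumour-labelled libraries scattered more. Srm ranged there over 7.56 to 43.1 TPM under isotype and 2.48 to 11.9 TPM under anti-PD-1 in the CZA+DAV132 arm (change −1.50 (SE 0.70)). Under CZA alone it ranged over 1.07 to 35.6 and 7.21 to 41.02 TPM, with a change of the opposite sign, 0.97 (SE 0.66).

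Spermine synthase and the aminopropyl donor enzyme overlapped between antibodies in sorted T cells. Sms (ENSMUSG00000071708, chrX:157443855-157492287) had 23.5 to 41.5 TPM under isotype and 9.18 to 35.3 TPM under anti-PD-1 in the CZA+DAV132 arm, and its change of −0.51 became −0.05 with median-ratio scaling. Among its tumour-labelled libraries the highest anti-PD-1 library (T023) and the lowest isotype library (T028) lay next to each other, the groups ranging over 25.3 to 52.8 and 53.2 to 92.7 TPM (change −0.78 (SE 0.44)). Amd1 (ENSMUSG00000075232, chr10:40287458-40302186) had a change of −0.65 in CZA+DAV132 CD8+ T cells, −0.24 after scaling, and of 0.00 in the CZA arm. With CZA alone Amd1 had 14.4, 9.90, 9.64, 20.4 and 3.64e-08 TPM under isotype (T983, T985, T986, T987, T991) and 12.6, 13.96, 36.9, 17.2 and 36.4 TPM under anti-PD-1 (T982, T984, T988, T989, T990). With CZA+DAV132 it had 32.6, 15.8, 6.76 and 46.1 TPM under isotype and 5.20, 11.2, 7.26, 13.9 and 14.5 TPM under anti-PD-1. All 5 anti-PD-1 libraries stood above the isotype mean in the CZA arm and all 5 below it in the CZA+DAV132 arm, with changes of 1.42 (SE 0.68) and −0.99 (SE 0.72), though the groups overlapped in each arm. Library T991 at 3.64e-08 TPM is in effect listed at 0, which can be a failed estimate. Without it the change in the CZA arm was 0.66, and T982 lay below the isotype mean.

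Antizyme stood lower and its inhibitor less so. Oaz1 (ENSMUSG00000035242, chr10:80826656-80829290) had 1620, 1449, 1622, 1181 and 2347 TPM under isotype and 416, 698, 836, 296 and 881 TPM under anti-PD-1 in CZA+DAV132 CD8+ T cells. The groups did not overlap, the highest treated library (20) lying below the lowest isotype library (14), and the change was −1.48 (SE 0.35), or −1.0 without libraries 16 and 19. Under CZA alone the anti-PD-1 libraries were 2037, 968, 632, 2095 and 1887 TPM against 1291 to 2215 TPM under isotype, so libraries 7 and 8 lay below and the other 3 within the isotype range (change −0.41 (SE 0.35)). Among tumour-labelled libraries of the CZA+DAV132 arm Oaz1 had 734, 785, 957 and 684 TPM under isotype and 266, 288, 186, 505 and 357 TPM under anti-PD-1, again without overlap (change −1.37 (SE 0.32)). The CZA arm there overlapped, at 888 ± 228 and 694 ± 284 TPM (SD, n = 5 and 5; change −0.43). Azin1 (ENSMUSG00000037458, chr15:38487427-38519266) overlapped in all 4 comparisons. It had 15.97 ± 2.29 and 11.6 ± 3.91 TPM in CZA+DAV132 CD8+ T cells (SD, n = 5 and 5), and its change of −0.50 became −0.06 with median-ratio scaling. The other changes of Azin1 were 0.14 in CD8+ T cells of the CZA arm, and −0.45 and 0.18 in the CZA+DAV132 and CZA arms of the tumour-labelled set.

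The acetyltransferase of polyamine breakdown overlapped between antibodies throughout. Sat1 (ENSMUSG00000025283, chrX:155213132-155216449) had 159 to 209 TPM under isotype and 48.6 to 161 TPM under anti-PD-1 in CZA+DAV132 CD8+ T cells, where library 18 lay within the isotype range, library 17 just under it and the other 3 below. Its change of −0.76 there was −0.24 without libraries 16 and 19, and it was −0.14 in the CZA arm. The tumour-labelled isotype libraries of the CZA arm had the highest mean of the 4 groups, at 424, 207, 330.0, 252 and 489 TPM. The corresponding anti-PD-1 libraries had 289, 161, 275, 128 and 169.9 TPM (change −0.73 (SE 0.37)), and those of the CZA+DAV132 arm 67.7 to 248 TPM under isotype and 75.8 to 150.4 TPM under anti-PD-1 (change −0.46 (SE 0.39)).

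**Figure D3:**
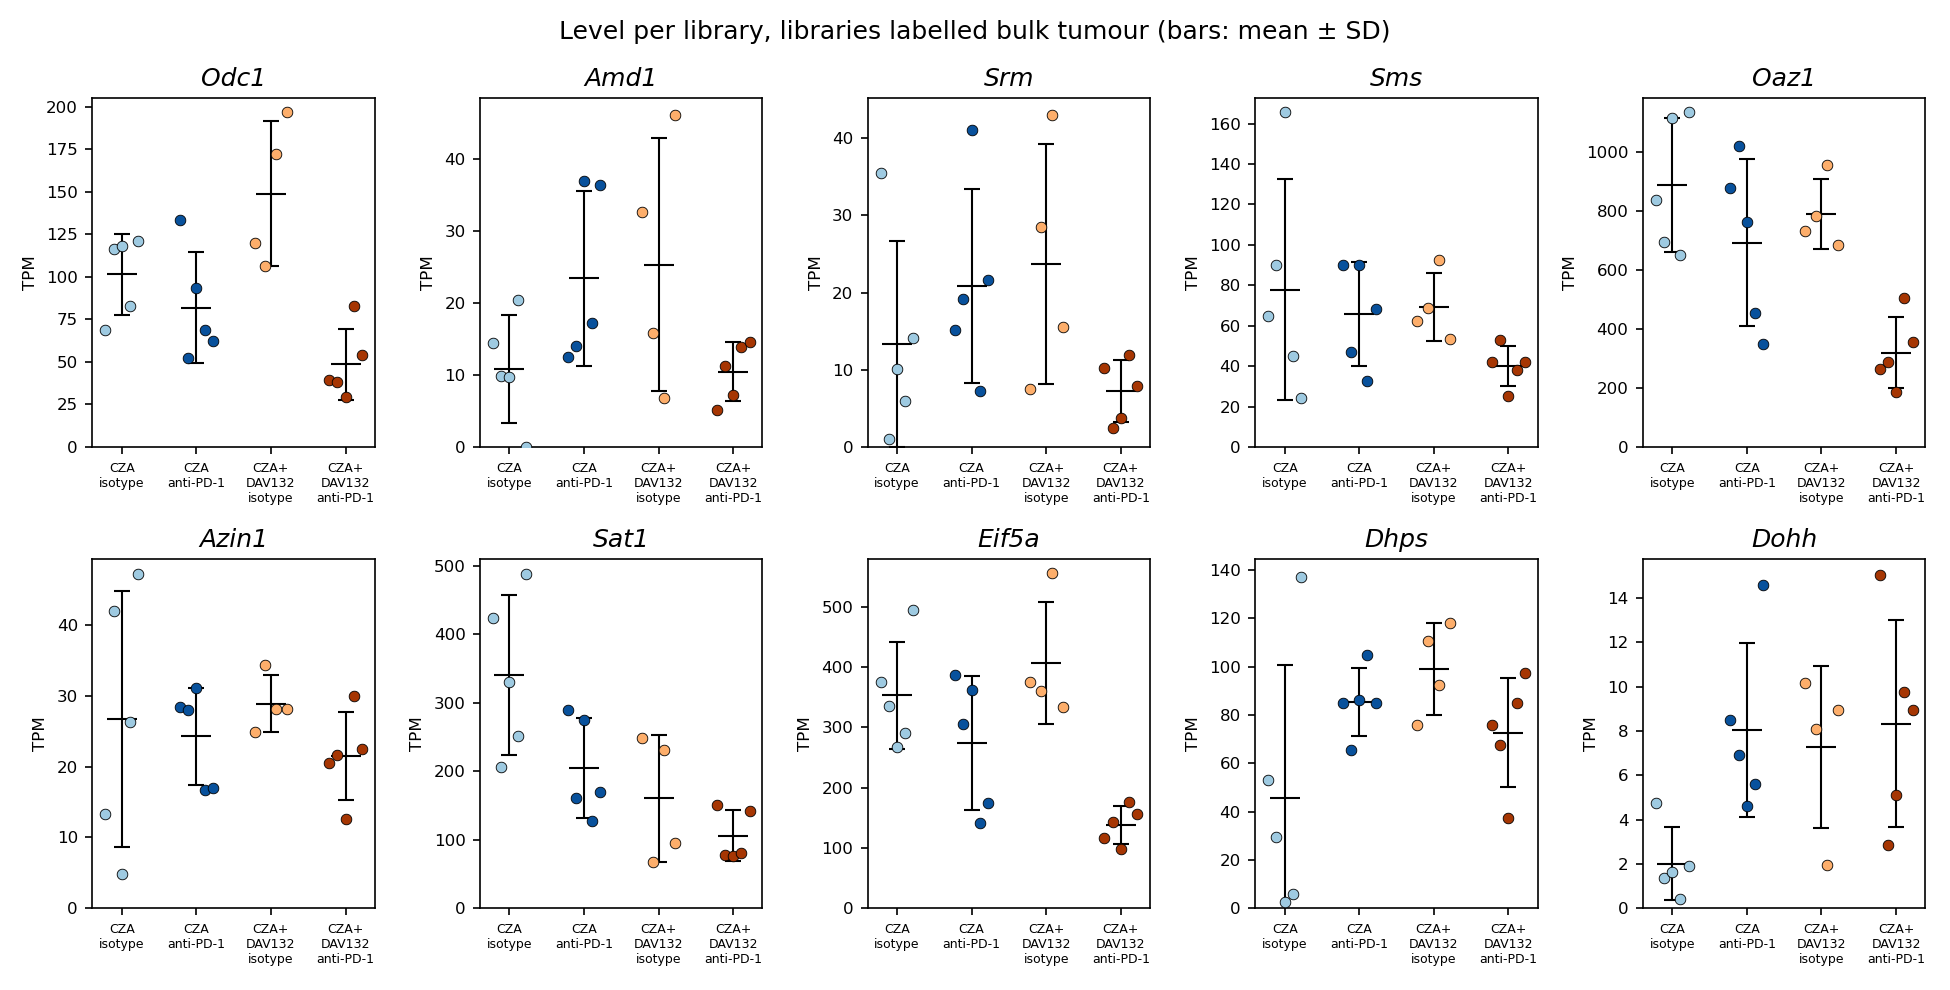
Each panel plots the TPM of 1 gene (linear axis from 0) in the 19 libraries labelled bulk tumour, a point per library by group, with the mean and SD as bars. The CZA+DAV132 anti-PD-1 points of Odc1, Oaz1, Sms and Eif5a lie below all isotype points of that arm, and Dhps ranges from 2.77 to 137 TPM within the CZA isotype group.

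The transcript of eIF5A had the most negative change of the 10 genes in CZA+DAV132 CD8+ T cells, and the groups of its modifying enzymes overlapped. Eif5a (ENSMUSG00000078812, chr11:69916714-69921958) had 748, 949, 1004, 809 and 1323 TPM under isotype and 246, 319, 388, 153 and 472 TPM under anti-PD-1 in CZA+DAV132 CD8+ T cells. All 5 treated libraries, library 20 with the highest value included, lay below the lowest isotype library, and the means were 967 ± 224 and 315 ± 123 TPM (SD, n = 5 and 5), a change of −1.68 (SE 0.33). Without libraries 16 and 19 it was −1.29. Under CZA alone Eif5a had 718, 1064, 1437, 1234 and 1388 TPM under isotype and 1002, 556, 352, 1055 and 912 TPM under anti-PD-1. All 5 treated libraries lay below the isotype mean, but library 1, with isotype, was lower than 3 of them (change −0.66 (SE 0.33)). The tumour-labelled libraries of the CZA+DAV132 arm had 375, 361, 556 and 334 TPM under isotype and 116, 143, 98.6, 176 and 156 TPM under anti-PD-1, without overlap (change −1.55 (SE 0.30)). The CZA arm there overlapped, at 353 ± 89.3 and 275 ± 111 TPM (SD, n = 5 and 5; change −0.44), with T989 and T990 below the isotype range.

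Dhps (ENSMUSG00000060038, chr8:85071757-85075162), which starts the hypusine modification, had changes of −0.61 and 0.32 in the CZA+DAV132 and CZA arms of CD8+ T cells, with overlap in both. Among treated CZA+DAV132 libraries, library 19 alone, at 14.0 TPM, lay far below the others, which had 42.2 to 64.0 TPM, and the change was −0.15 after scaling and −0.26 without library 19. The tumour-labelled CZA isotype libraries of Dhps were 52.9, 29.6, 2.77, 5.96 and 137 TPM, and the anti-PD-1 libraries 85.03, 65.3, 86.2, 105 and 84.8 TPM. T986 and T987 were the lowest and T991 the highest of all 19 libraries, so the change of 1.91 (SE 0.65) compares a wide group with a narrow one. With DAV132 the levels of Dhps were 75.7, 111, 92.4 and 118 TPM under isotype and 75.97, 67.5, 37.4, 84.95 and 97.3 TPM under anti-PD-1 (change −0.49 (SE 0.69)), all 5 below the isotype mean. Dohh (ENSMUSG00000078440, chr10:81384428-81388352), which completes hypusine, had 9.40 to 17.2 and 3.85 to 14.2 TPM in CZA+DAV132 CD8+ T cells (change −0.52, and −0.10 after scaling). Tumour-labelled libraries of the CZA arm had 4.76, 1.37, 1.62, 0.427 and 1.91 TPM of Dohh under isotype and 8.49, 6.93, 4.61, 5.62 and 14.6 TPM under anti-PD-1, so that only T983 reached into the anti-PD-1 range (change 1.64 (SE 0.51)). In the CZA+DAV132 arm the groups overlapped widely, at 7.28 ± 3.65 and 8.33 ± 4.67 TPM (SD, n = 4 and 5; change 0.18, and −0.27 without T027). Without T991, 1 of the 10 genes was called higher in the CZA arm of this set, against 0 with it (background 0.278% with it, and not given without it).

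Ratios within a library do not depend on how much of its TPM the repeats took. The ratio of Eif5a to Oaz1 overlapped between the antibodies. There were 59.7 ± 8.80 TPM of Eif5a per 100 TPM of Oaz1 with isotype and 51.3 ± 5.54 with anti-PD-1 in CZA+DAV132 CD8+ T cells (SD, n = 5 and 5), and over all 20 libraries the ratio ranged from 45.6 to 68.5. Corresponding tumour-labelled values were 51.01 ± 5.18 and 44.96 ± 6.94 (SD, n = 4 and 5). Against the summed TPM of 37 other translation factors, however, Eif5a was lower under anti-PD-1 in CD8+ T cells, with 7.11 to 11.1 per 100 in the isotype libraries of the CZA+DAV132 arm and 4.88 to 6.66 in the treated ones, which did not overlap. These ranges overlapped among tumour-labelled libraries, at 2.43 to 4.29 and 1.54 to 2.54. Dhps per 100 Eif5a was higher under anti-PD-1 in the same arm, 4.78 to 8.94 against 9.11 to 17.2 in CD8+ T cells and 16.6 to 35.4 against 37.9 to 65.5 in the other set, without overlap. Azin1 per 100 Oaz1, the antizyme inhibitor relative to antizyme, went the same way. Among CZA+DAV132 tumour-labelled libraries it was 2.95 to 4.38 with isotype and 5.95 to 7.73 with anti-PD-1, without overlap, and in CD8+ T cells 0.588 to 1.67 and 1.66 to 2.83, where library 14 (isotype) reached into the treated range. Odc1 per 100 Oaz1 overlapped in both sets, at 3.18 to 7.05 and 3.48 to 6.35 in CD8+ T cells and 13.6 to 28.7 and 13.2 to 16.4 in the other set. Srm per 100 Sms was 102 to 301 with isotype and 67.6 to 85.8 with anti-PD-1 in CD8+ T cells of that arm, a wide and a narrow group that did not overlap. Since the ratios use the values by which the genes were chosen, no test is given. Eif5a and Oaz1 were chosen for being lower with anti-PD-1, so the direction of a ratio with either is in part built in. After median-ratio scaling Dhps itself changed by −0.15 and Azin1 by −0.06 in CD8+ T cells of that arm. How many other genes would not overlap when divided by Eif5a or Oaz1 was not counted.

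**Figure D4:**
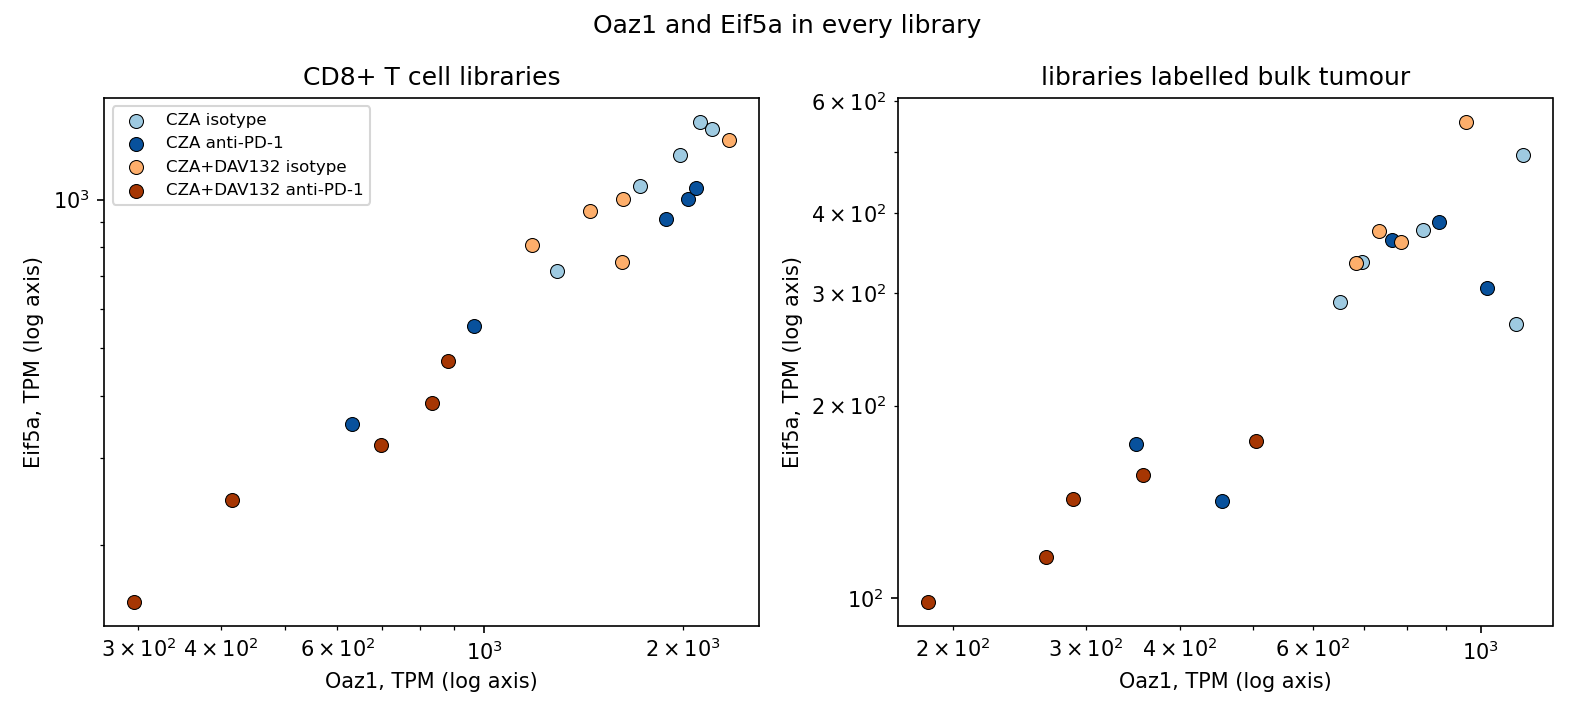
Each point is a library, placed by its TPM of Oaz1 and of Eif5a on log axes, coloured by group. In both sets the 2 genes rise together, and the CZA+DAV132 anti-PD-1 libraries are at the low end, from 153 to 472 TPM of Eif5a in CD8+ T cells and 98.6 to 176 TPM in the libraries labelled bulk tumour. The CZA anti-PD-1 libraries 8 (352 TPM), T989 (142 TPM) and T990 (174 TPM) lie within those ranges.

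Libraries of the same group also differed together. The deviations of Oaz1 and Eif5a from their group means had a Pearson r of 0.96 over the 20 CD8+ T cell libraries and 0.78 over the 19 others, and 0.93 and 0.73 after median-ratio scaling. All 45 pairs of the 10 genes had a positive r in CD8+ T cells, with a median of 0.67. After scaling 24 pairs were positive, the median was 0.06 and the lowest was −0.80, between Oaz1 and Sms. Oaz1 also kept 0.73 with Dohh and 0.60 with Srm after scaling in CD8+ T cells, but had −0.42 with Dohh and 0.32 with Srm in the other set. There 30 of 45 pairs were positive, the median being 0.15 and, after scaling, 0.09. By total correlation over all libraries of each set, the genes most like Eif5a among 6646 ranked were Cct5, a subunit of the chaperonin TRiC (mean r of the sets 0.95), the ribosomal protein gene Rpl4 (0.95) and Oaz1 (0.95). Most like Odc1 were Eef1b2, a subunit of an elongation factor (0.91), Vapa, a membrane protein of the endoplasmic reticulum (0.90), and Skil, a regulator of TGF-beta signalling (0.89). These correlations are descriptions over libraries whose genes share a scale within each library, and they include the group differences.

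The DAV132 difference averaged over the antibodies was not used in choosing the genes, and it was tested. It shares all its libraries with the anti-PD-1 contrast, and unequal spread between groups ties the 2 in part. Its p-values and intervals measure the spread between libraries, not between treated stools. Among libraries labelled bulk tumour the arm follows the library number ranges, so a batch tied to those cannot be told apart from it. All 10 genes stood lower in CZA+DAV132 than in CZA CD8+ T cells, and none passed. The mean of Eif5a was 641 TPM against 972 TPM, a log2 difference of −0.77 (95% interval −1.25 to −0.29, adjusted p = 0.275), that of Oaz1 1134 TPM against 1695 TPM, −0.73 (95% interval −1.24 to −0.21, adjusted p = 0.275), and that of Srm 34.8 TPM against 53.3 TPM, −0.73 (95% interval −1.21 to −0.25, adjusted p = 0.275), by limma over all genes. Dohh had −0.44 (95% interval −0.86 to −0.03, adjusted p = 0.280), and the other 6 genes had differences from −0.33 to −0.16 with intervals that include 0. The median over all genes was −0.22. With median-ratio scaling Azin1, Sms, Amd1 and Dhps were higher, by 0.12, 0.02, 0.04 and 0.04. Among tumour-labelled libraries, Sat1 had the largest difference relative to its error, with 130.0 TPM against 273 TPM and −1.08 (95% interval −1.64 to −0.52, adjusted p = 0.279), followed by Oaz1 with 529 TPM against 791 TPM and −0.61 (95% interval −1.06 to −0.16, adjusted p = 0.398). Eif5a had −0.35 (95% interval −0.79 to 0.08, adjusted p = 0.686) and Odc1 −0.11 (95% interval −0.60 to 0.38, adjusted p = 0.955). On the positive side, Dhps had 0.92 (95% interval −0.06 to 1.91, adjusted p = 0.607) and Dohh 0.71 (95% interval −0.07 to 1.49, adjusted p = 0.620). Limma called 0 of all genes in this contrast in either set (background 0%), with 2255 of 12942 and 1177 of 13326 at an unadjusted p under 0.05.

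**Figure D5:**
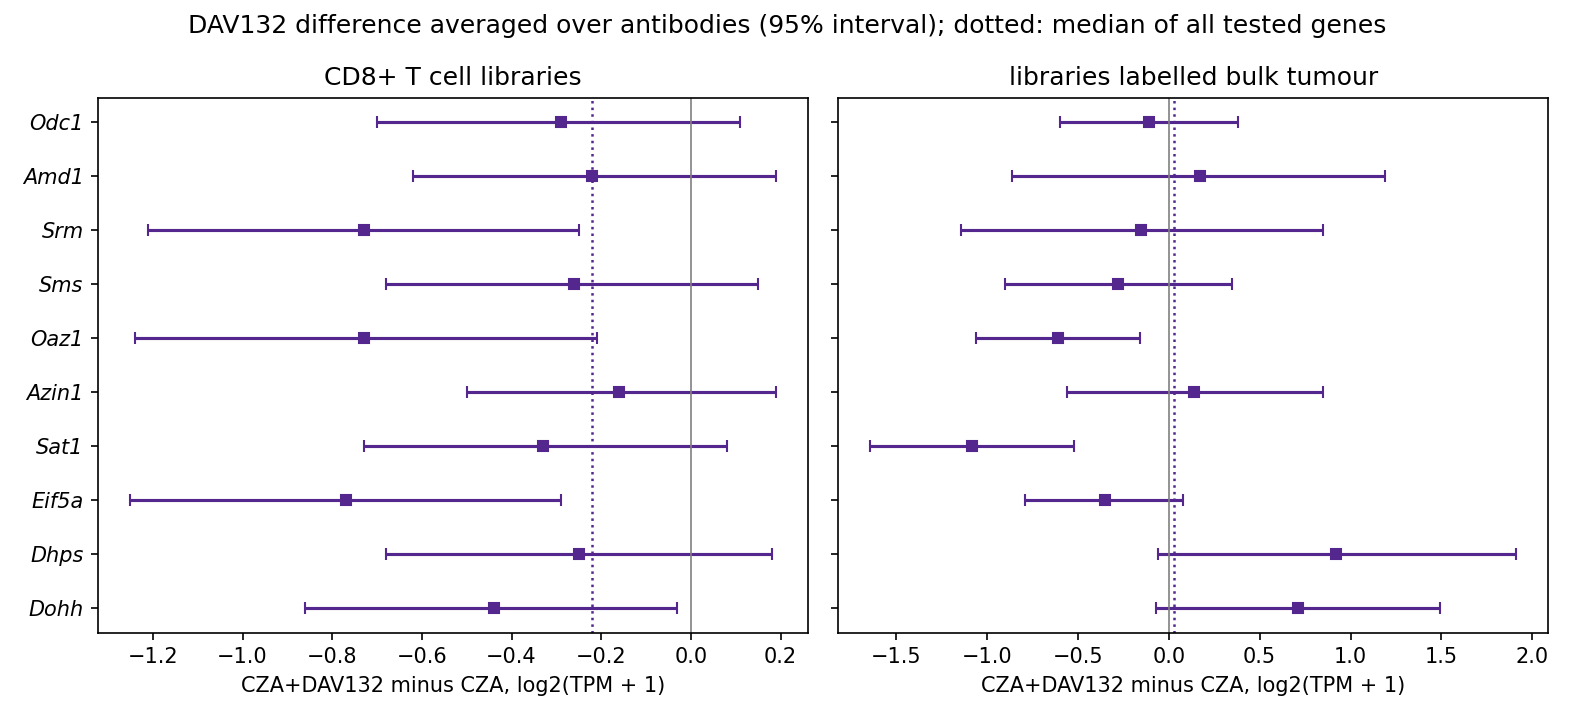
Squares give the log2 difference between the CZA+DAV132 and the CZA arm, averaged over the antibodies, with the 95% interval from limma, and the dotted line the median of all tested genes. All 10 squares lie below 0 in CD8+ T cells, whereas Sat1 and Oaz1 have intervals below 0 and Dhps and Dohh the highest values among libraries labelled bulk tumour.

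Within each antibody the DAV132 difference is a description, since the comparison under anti-PD-1 shares its libraries with the anti-PD-1 comparison above. Under anti-PD-1 the log2 difference was negative for all 10 genes in both sets, with medians of −0.69 against −0.40 over all genes in CD8+ T cells and −0.83 against −0.19 in the other set. Among tumour-labelled libraries that of Dohh was −0.02, with means of 8.33 ± 4.67 TPM with DAV132 and 8.05 ± 3.93 TPM without (SD, n = 5 and 5). With median-ratio scaling the sign turned for Azin1 (0.01) and Sms (0.02) in CD8+ T cells and for Azin1 (0.12), Dhps (0.02) and Dohh (0.23) in the other set. Examples in CD8+ T cells were Eif5a at −1.28, Oaz1 at −1.26 and Srm at −1.08. No member was called there (background 0.0386% lower, and 0% in the other set), but 5 were without library 20, 4 without library 18 and 3 without library 8. The share of all genes in those fits is not given, so these counts have no background. With all libraries, 4338 of 12942 genes had an unadjusted p under 0.05 in that CD8+ T cell comparison. Under the isotype antibody the signs were mixed and 0 members were called (background 0% in CD8+ T cells, and 0% lower and 0.113% higher in the other set). Odc1 was 0.22 in CD8+ T cells and 0.54 in the other set, where Dhps had 2.12, Dohh 1.44 and Sat1 −1.22. The difference between the arms in the anti-PD-1 change was negative for all 10 genes in CD8+ T cells, from −1.06 (Oaz1) to −0.44 (Dohh), and from −0.59 to 0.00 with median-ratio scaling. It was negative for 9 of 10 in the other set, from −2.46 (Srm) to −0.63 (Azin1), with Sat1 at 0.27, and was not tested for these genes. Over all genes the median of this difference was also negative, at −0.37 in CD8+ T cells and −0.42 in the other set. With median-ratio scaling these medians were −0.01 and −0.06.

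The wider polyamine route had a share of lower calls close to that of all genes. Of 27 further genes of polyamine transport, oxidation, methionine salvage and eIF5A export, 23 were tested in each set. With anti-PD-1 in CZA+DAV132 CD8+ T cells, 5 fell (Mtap, Mri1, Apip, Adi1, Slc3a2) and 1 rose (Slc18b1), against 19.4% and 4.12% of all genes. Without libraries 16 and 19, 0 of either passed, against 5.2% and 4.24% of all genes. With median-ratio scaling 3 were lower and 2 higher, against 14.1% and 11.4%. Mtap, Mri1, Apip and Adi1 recycle the methylthioadenosine that spermidine and spermine synthesis release. Adi1 fell from 15.0 ± 1.27 to 7.44 ± 3.82 TPM (SD, 5 libraries each; log2 change −1.06, adjusted p = 0.0160 by limma) and Apip from 29.5 ± 4.74 to 14.9 ± 5.42 TPM (−1.03, adjusted p = 0.0206 by limma). Slc3a2, the heavy chain of amino acid transporters that has also been linked to polyamine export, fell from 62.7 ± 6.13 to 34.4 ± 15.4 TPM (−0.99, adjusted p = 0.0225 by limma). Oaz2, the second antizyme, did not pass (−0.66, adjusted p = 0.0655 by limma), nor did Arg1, which makes ornithine (−1.31, adjusted p = 0.102), Smox, which oxidises spermine (−0.38, adjusted p = 0.268), or Xpo4, the exporter of eIF5A (0.46, adjusted p = 0.202), which passed as higher with median-ratio scaling (0.92). Eif5a2 was at about 1 TPM in all groups of that set (1.25 ± 0.383 TPM under isotype in this arm). No tumour-labelled comparison of the arms gave a pass among the 23 (0 of 23 in each). Smox stood at 15.9 ± 4.37 and 3.11 ± 1.40 TPM in the CZA+DAV132 arm (SD, n = 4 and 5; −2.04, adjusted p = 0.420 by limma), and Oaz2 at 38.3 ± 26.5 and 9.37 ± 5.15 TPM in the CZA arm (SD, n = 5 and 5; −1.96, adjusted p = 0.178 by limma). With CZA alone 0 passed in CD8+ T cells as well.

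Many other translation factors fell in the comparison where Eif5a had its most negative change, and Myc did not pass. Of 37 initiation, elongation and termination factors, 22 fell and 0 rose with anti-PD-1 in CZA+DAV132 CD8+ T cells, against 19.4% and 4.12% of all genes. Without libraries 16 and 19, 7 fell, against 5.2% of all genes, and with median-ratio scaling 22 fell and 1 rose, against 14.1% and 11.4%. The median change of the list was −0.82 against −0.34 over all genes. Eif1, which takes part in start codon choice, fell from 3576 ± 549 to 1292 ± 489 TPM (SD, n = 5 and 5; −1.57, adjusted p = 0.00589 by limma), as did Eif2s1, the alpha subunit of eIF2 (log2 change −1.42, adjusted p = 0.00589), and Eif6, which keeps ribosomal subunits apart (log2 change −1.46, adjusted p = 0.00686). Among tumour-labelled libraries of that arm 3 of 37 fell (Eef1b2, Eif4a1, Eef1a1), against 0.21% of all genes, and 1 without T026 and T985. Eef1b2 fell from 1176 ± 60.2 to 503 ± 154 TPM (SD, n = 4 and 5; −1.28, adjusted p = 0.0179 by limma). With CZA alone 0 of 37 passed in either set. Myc, the transcription factor known to drive Odc1, had 40.03 ± 12.4 TPM under isotype and 29.9 ± 14.5 TPM under anti-PD-1 in CZA+DAV132 CD8+ T cells (SD, n = 5 and 5; −0.55, adjusted p = 0.268 by limma), and in the other set its log2 change was −0.66, adjusted p = 0.726. A further list held Myc, Mycn, Max, other factors that bind MAX (Mxd1, Mxd4, Mnt, Mxi1) and known targets. Of it, 5 of 23 tested genes fell in those CD8+ T cells (the targets Fbl, Ldha, Nme1 and Pa2g4, and Mxd1). That share is near the 19.4% of all genes, and 0 rose. Without libraries 16 and 19, 1 was lower and 2 were higher, against 5.2% and 4.24% of all genes. Median-ratio scaling gave 4 lower and 2 higher, against 14.1% and 11.4%. In the tumour-labelled set 0 of 24 passed. Nme1, a nucleotide kinase, fell from 322 ± 59.1 to 111 ± 51.8 TPM in those CD8+ T cells (−1.69, adjusted p = 0.00845 by limma).

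Markers of proliferation and of other cells moved in the same comparisons, and their part in these results was not tested. The counts that follow stand against 19.4% of all genes called lower and 4.12% called higher. Of 20 cell cycle genes, 10 fell with anti-PD-1 in CZA+DAV132 CD8+ T cells. Without libraries 16 and 19, 2 fell, against 5.2% of all genes, and with median-ratio scaling 7 fell, against 14.1%. The summed level of the 20 ranged over 1312 to 1798 TPM under isotype and 336 to 1409 TPM under anti-PD-1. Of 12 macrophage and monocyte markers 5 fell, with sums of 77.2 to 793 TPM and 56.0 to 295 TPM. Of 6 NK cell markers 4 were tested and 3 fell, with sums of 49.2 to 137 and 8.71 to 33.9 TPM. No macrophage or NK marker had a median of 0 in either group. Of 10 T cell markers 1 fell, with sums of 10130 to 13518 and 3675 to 12200 TPM. With CZA alone 0 markers of these 4 lists passed in CD8+ T cells, although the macrophage sums had medians of 858 TPM under isotype and 309 TPM under anti-PD-1. Of 4 endothelial markers 2 were tested and 1 rose, with sums of 219 to 382 TPM under isotype and 432 to 2468 TPM under anti-PD-1 and Cdh5 at a median of 0 in both groups. The other lists gave 2 lower and 1 higher of 7 tested dendritic cell genes, 1 lower of 2 B cell genes, 1 lower of 1 keratinocyte gene, and 0 of 3 neutrophil, 0 of 4 erythroid and 0 of 8 fibroblast and sarcoma genes. Averaged over the arms, 12 of 12 macrophage, 3 of 4 tested NK and 5 of 20 cell cycle genes fell in CD8+ T cells, against 10.8% of all genes. So did 2 of 7 dendritic cell genes and 1 of 1 keratinocyte gene. None passed of 10 T cell, 2 B cell, 3 neutrophil, 4 erythroid, 8 fibroblast and sarcoma and 2 endothelial genes. In the tumour-labelled set the averaged change gave 1 of 5 erythroid and 1 of 2 endothelial genes higher, against 0.518% of all genes, and no marker lower. No cell cycle, macrophage, NK, T cell or endothelial marker passed in either arm of the tumour-labelled set (0 of each list), where 1 of 5 erythroid genes rose in the CZA arm. Its endothelial sums were 814 to 1430 and 1757 to 5830 TPM in the CZA+DAV132 arm. The NK genes Ncr1 and Klra8 were at a median of 0 there. The macrophage sums there were 54.5 to 453 TPM under isotype and 65.6 to 149.5 TPM under anti-PD-1 in the CZA+DAV132 arm, and 186 to 737 and 45.6 to 274 TPM in the CZA arm, where Cd14 was at a median of 0 with isotype and Adgre1 with anti-PD-1.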

How the data were processed

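The authors deposited expression as TPM in a table for each set, made with kallisto 0.45 on GRCm38 per the submitters' processing notes. The annotation, the summing of transcripts to genes and the strand setting were not given in the sources at hand. Per the labels' protocols, total RNA was ribodepleted and made into directional libraries. TPM holds no read counts, so depth and counting error are unknown. Kallisto shares reads between near-identical copies: Oaz1-ps reached at most 5.25 TPM, whereas Sms-ps reached 50 and Amd-ps3 10.4 TPM, so Sms and Amd1 are uncertain.

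All value columns were mapped to samples by name. Groups came from the titles and treatment labels. Of 28023 symbols 27787 matched GENCODE M21, which gave identifiers and coordinates. Per set, genes that reached 1 TPM in 4 or more libraries were tested on log2(TPM + 1) with limma 3.58.1 (R 4.3.3), fitting 4 group means with an intensity trend and Benjamini-Hochberg adjustment over all tested genes. Log2 changes understate those of low genes. The fit was tested on simulated data. Nothing in the labels says that the libraries of a group came from separate mice, so p-values measure the spread between libraries only. The CZA+DAV132 and CZA libraries labelled bulk tumour carry separate number ranges (T021 to T030 and T982 to T991), so a batch tied to those numbers cannot be told apart from the arm.

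The 10 genes and the gene lists were chosen with earlier results of these data known. The 10 genes were tested only for the DAV132 difference averaged over antibodies. With groups of equal size and spread it is uncorrelated with the anti-PD-1 contrast behind the choice. With 4 against 5 libraries it is nearly so. Spread was not equal throughout. Odc1 in CD8+ T cells had 10.3 to 40.2 TPM (CZA+DAV132, anti-PD-1) and 50.04 to 64.7 TPM (CZA, isotype). Where spread differs, the test is not fully independent of the choice. Named genes were the 10, the 3 of smallest p in each list (mean of at least 5 TPM), a fixed set of polyamine genes, the 3 most like Eif5a and Odc1, and list members named where 5 or fewer passed. Alternatives tried: fitting just the 2 groups of a comparison, adding 0.1 instead of 1 before the log, no filter, a mean of 5 TPM, median-ratio scaling, array weights and leaving out each library. Added after seeing the data were TPM rescaled without 15 repeat entries, and leaving out libraries 16 and 19, or T026 and T985.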

Additional observations from a re-analysis of the deposited data

Results flagged for a closer look

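In 2 genes every anti-PD-1 library moved one way in the CZA arm and the other way in the CZA+DAV132 arm of the tumour-labelled set, relative to the isotype mean of its arm. Amd1 had a difference between the arms of −2.40 on the log2 scale (1.42 in the CZA arm and −0.99 in the CZA+DAV132 arm). For Amd1 this rests on isotype library T991, listed at 3.64e-08 TPM. Without T991 the anti-PD-1 library T982 (12.6 TPM) lies below the isotype mean of the CZA arm, and the change there is smaller. Dhps also had −2.40 (1.91 and −0.49). Neither difference was tested, because the genes were chosen with their anti-PD-1 values known. In CD8+ T cells the corresponding differences were −0.65 and −0.94. The median difference over all genes was −0.42 in the tumour-labelled set and −0.37 in CD8+ T cells.

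A library lay far from the others of its group, by the gap to its nearest neighbour as a share of the range, in 0 of 80 checks of a gene in a group on the TPM scale and in 5 on the log2(TPM + 1) scale. Chance alone marks about 1 in 20 groups. Among anti-PD-1 libraries of CZA+DAV132 CD8+ T cells, library 19, the richest in repeat entries, was lowest for Azin1 (5.05 TPM, the next 11.8 TPM), Srm (7.46 and 17.9 TPM) and Dhps (13.96 and 42.2 TPM). Without it the anti-PD-1 changes were −0.26, −1.09 and −0.26. Among tumour-labelled libraries, T991 was lowest for Amd1 in the CZA isotype group (3.64e-08 TPM, the next 9.64 TPM) and T027 for Dohh in the CZA+DAV132 isotype group (1.95 and 8.10 TPM). Without them the changes in those arms were 0.66 and −0.27.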

How the results depend on the processing

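No paired analysis was possible because the groups share no replicate numbers. For CD8+ T cells, the number of the 10 genes called lower with anti-PD-1 in the CZA+DAV132 arm (4) ranged from 4 to 7 when each library was left out, and the number called lower with DAV132 under anti-PD-1 (0) was 4 with a mean of 5 TPM, 2 with array weights and 0 to 5 without each library. In the tumour-labelled set, the number called lower with anti-PD-1 in the CZA+DAV132 arm (2) was 0 in a fit of only the groups compared, 0 with no filter, 0 without T026 and T985 and 0 to 3 without each library. Averaged over arms (3) it was 0 with no filter, 1 without T026 and T985 and 0 to 3 without each library. There the number called higher with anti-PD-1 in the CZA arm, and with DAV132 under isotype, ranged from 0 to 1 without each library. The median correlation between the 10 genes in CD8+ T cells, 0.67, was 0.06 with median-ratio scaling. The cause of these changes was not tested. Fits without a single library, with a mean of 5 TPM or with array weights have no share of all genes beside them. Neither do fits of only the groups compared or with no filter. In the tumour-labelled fit without T026 and T985, 0.0839% of all genes were called lower with anti-PD-1 in the CZA+DAV132 arm, and 0.58% averaged over arms.

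For the tested DAV132 difference averaged over antibodies, no gene passed under any alternative; adjusted p ranged from 0.109 (Oaz1, without library 20) to 0.996 in CD8+ T cells and from 0.189 (Sat1, median-ratio scaling) to 0.9999 in the tumour-labelled set. In CD8+ T cells the sign turned with median-ratio scaling for Azin1 (0.12), Sms (0.02), Amd1 (0.04) and Dhps (0.04). In the tumour-labelled set it turned for Odc1 without T026 and T985 (0.00), for Srm with array weights (0.06), and for 3 genes when single libraries were left out. Over those fits Srm ranged from −0.43 to 0.09 (0.06 without T022 and 0.09 without T983), Azin1 from −0.09 (without T986) to 0.29, and Amd1 from −0.21 (without T991; −0.02 without T028) to 0.41. A fit of only the groups compared cannot differ for contrasts averaged over all 4 groups.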
